A study of Mus musculus with 24 samples.

Results

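Corticosteroid signalling in the cerebellum was described through 9 genes, the receptor genes Nr3c1 and Nr3c2, the ligand-activating enzyme gene Hsd11b1, the receptor cochaperone genes Fkbp4 and Fkbp5, and the hormone-responsive genes Tsc22d3, Sgk1, Zbtb16 and Ddit4. All 9 symbols matched 1 Ensembl identifier each among the 37991 in the count files, and all 9 passed the low-count filter that left 15292 genes. The group was chosen by its levels in these libraries, because Nr3c2 was higher at 79 weeks, so the age differences of the 9 genes are given as descriptions without p-values, and how many of them passed the threshold of the fit across all genes is given with nothing read from it. The samples were cerebella of male mice of the inbred strain C57BL/6J aged 79 weeks and 7 weeks, with 2 mRNA libraries per age and no treatment named in the labels. The other 20 of the 24 samples of the series are genomic and were not analysed here. Whether same-age libraries came from different mice is not stated in the labels. The p-values below therefore set the age difference only against the spread between same-age libraries, which can be technical variation.

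Corticosterone, the main glucocorticoid of mice, acts through a pair of nuclear receptors: the mineralocorticoid receptor, encoded by Nr3c2, which binds it with the higher affinity, and the glucocorticoid receptor, encoded by Nr3c1. Unliganded receptors sit in the cytoplasm in a complex with the chaperone HSP90 and a cochaperone such as the products of Fkbp5 and Fkbp4, and after binding hormone they enter the nucleus and bind DNA at glucocorticoid response elements. In the brain the mineralocorticoid receptor is best known from the hippocampus, while the glucocorticoid receptor is present in most cell types.

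The letters of the response element were looked for in the promoter windows that RefSeq gives on build GRCm38.p6, each with 250 bases before a transcription start and 50 after it. Windows were found for 7 of the 9 genes, 14 windows in all, of which 6 belonged to Sgk1 and 3 to Tsc22d3. Nr3c1 and Zbtb16 had no entry. The motif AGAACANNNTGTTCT, which reads the same on both strands, stood in 3 of 32851 windows of all genes, or 0.00913%, and 1 of these 3 was a window of Sgk1, in which it began 189 bases before the start. The shorter motif TGTTCT, searched on both strands and contained in the longer one, stood in 4 of the 14 windows, 3 of Sgk1 and 1 of Tsc22d3, against 19% of all windows. The stretches below are shown because they hold these letters, in capitals, for Sgk1 and Tsc22d3, and because Nr3c2 is the gene for which the group was assembled; its stretch holds no match. A match is a description of the letters only and says nothing of binding in these samples.
Sgk1, plus strand of chr10:21993640-21993759: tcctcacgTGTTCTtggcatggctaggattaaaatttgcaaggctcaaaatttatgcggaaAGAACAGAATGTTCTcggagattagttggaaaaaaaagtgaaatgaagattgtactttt
Tsc22d3, minus strand of chrX:140600663-140600752: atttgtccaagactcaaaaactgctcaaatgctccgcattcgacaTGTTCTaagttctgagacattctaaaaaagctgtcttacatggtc
Nr3c2, plus strand of chr8:76902080-76902329: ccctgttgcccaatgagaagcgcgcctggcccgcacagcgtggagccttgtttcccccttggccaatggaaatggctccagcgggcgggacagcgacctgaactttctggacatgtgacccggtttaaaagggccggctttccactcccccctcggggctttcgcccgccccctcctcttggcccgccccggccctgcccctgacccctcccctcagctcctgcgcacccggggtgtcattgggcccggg

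Depth was 18901921 and 22826993 reads assigned to genes in the 79-week libraries, replicates 1 and 2, and 16367656 and 21124608 in the 7-week libraries. A count of 0 allows a level of up to 0.13 to 0.187 CPM (read counts scaled to library size with TMM factors), by the limit of 3 counts per library, which covers counting error only. The lowest count of any of the 9 genes was 144, for Fkbp5 in 7-week replicate 1. The defining genes of cerebellar neurons were present in each library, with summed levels of 8 granule neuron markers of 5699 to 5987 CPM at 79 weeks and 7047 to 7214 CPM at 7 weeks. One library stood apart. The summed level of 8 choroid plexus markers was 5351 CPM in 79-week replicate 1, against 38.0 CPM in 79-week replicate 2 and 16.1 and 29.4 CPM in the 7-week libraries, and none of the 8 was at 0 in replicate 1. None of the 9 genes differed by more than 1.3-fold between the 79-week libraries. In bulk tissue, fewer cells of a type and less RNA per cell cannot be told apart.

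The mineralocorticoid receptor gene stood well above the 7-week level in both aged libraries, while the glucocorticoid receptor gene stood at nearly the same level at both ages. Nr3c2 (ENSMUSG00000031618, chromosome 8) had 902 and 1159 reads in the 79-week libraries, replicates 1 and 2, against 323 and 501 reads in the 7-week libraries. Its level was 46.7 and 50.1 CPM at 79 weeks, against 20.1 and 24.2 CPM at 7 weeks. The libraries of the ages did not overlap, and the lowest 79-week level lay far above the highest 7-week level. The means were 48.4 ± 2.38 CPM at 79 weeks and 22.2 ± 2.86 CPM at 7 weeks (SD, n = 2 each), a 2.18-fold difference with a log2 fold change of 1.12 (SE 0.10). Microglia markers were also higher at 79 weeks, with 5 of 8 called, none at 0 in any library, and summed levels of 203.9 and 252.0 CPM at 79 weeks against 118.5 and 131.3 CPM at 7 weeks, and their part in the level of Nr3c2 was not tested. In 79-week replicate 2, where choroid plexus markers summed to 38.0 CPM, Nr3c2 was at 50.1 CPM, the higher of the 79-week values. Whether choroid plexus had a part in the level of Nr3c2 was not tested. With each library left out in turn the log2 fold change of Nr3c2 ranged from 0.998 to 1.26.

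Nr3c1 (ENSMUSG00000024431) had levels of 119.7 and 128.8 CPM at 79 weeks, against 125.9 and 131.7 CPM at 7 weeks. The libraries overlapped, and the log2 fold change was -0.05 (SE 0.06). Because both receptor genes were counted in each library, their ratio does not depend on how libraries were scaled, though its size depends on transcript length. There were 39.0 and 38.9 Nr3c2 reads per 100 Nr3c1 reads in the 79-week libraries, against 16.0 and 18.4 in the 7-week libraries. The mean ratio was 38.9 ± 0.0949 at 79 weeks and 17.2 ± 1.67 at 7 weeks (SD, n = 2 each), 2.27-fold higher at 79 weeks.

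A long noncoding RNA gene, Gm10649, overlaps Nr3c2 in the RefSeq annotation of GRCm38.p6, and the strand setting of the counting is not given. The counting set aside reads that matched more than 1 gene (0.696% to 0.766% per library). Reads from shared stretches can thus be missing from the Nr3c2 count, and how many was not tested. Gm10649 had 30 and 49 reads at 79 weeks and 31 and 34 reads at 7 weeks, against the Nr3c2 reads given above.

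**Figure D1:**
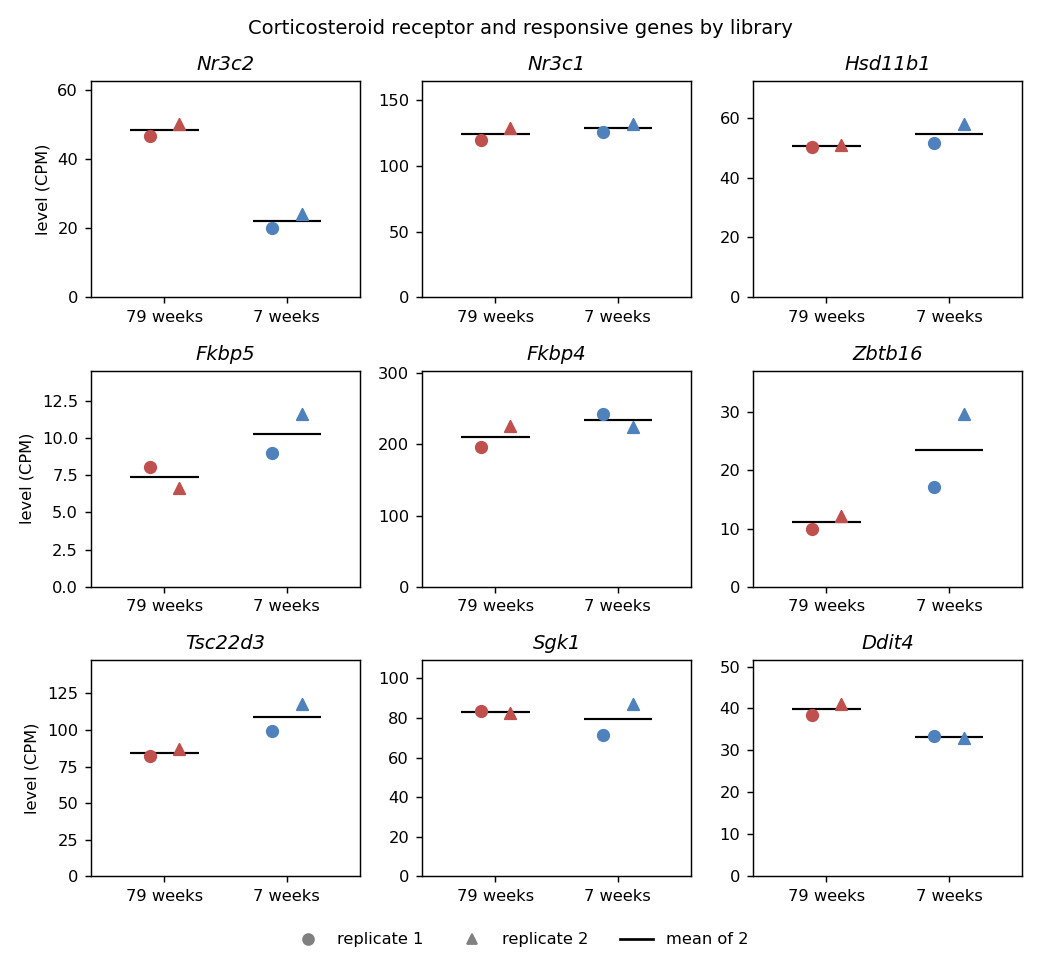
Level of each gene in CPM (vertical axes, from 0) in the 79-week and 7-week cerebellum libraries, with circles for replicate 1, triangles for replicate 2 and a line at the mean of 2. Nr3c2 lies at 46.7 and 50.1 CPM at 79 weeks, above 20.1 and 24.2 CPM at 7 weeks, while Nr3c1, Fkbp4 and Sgk1 overlap between ages.

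The enzyme gene and the cochaperone genes gave smaller differences, all with a negative sign. Hsd11b1 (ENSMUSG00000016194, chromosome 1) encodes the reductase that regenerates active glucocorticoid from its inert form inside cells. It stood at 50.2 and 51.0 CPM at 79 weeks, against 51.7 and 57.9 CPM at 7 weeks (log2 fold change -0.12, SE 0.08). The ages did not overlap, but the lower 7-week library, at 51.7 CPM, lay close to the higher aged library, at 51.0 CPM.

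Fkbp5 (ENSMUSG00000024222, chromosome 17) encodes FKBP51, a hormone-induced cochaperone that lowers the receptor's affinity for hormone. It stood at 8.08 and 6.65 CPM at 79 weeks, against 8.97 and 11.6 CPM at 7 weeks. The means were 7.37 ± 1.01 CPM at 79 weeks and 10.3 ± 1.88 CPM at 7 weeks (SD, n = 2 each), and the log2 fold change was -0.49 (SE 0.19). It was -0.29 with 7-week replicate 2 left out and -0.66 with 7-week replicate 1 left out. The gap between the ages, 8.08 against 8.97 CPM, was smaller than the gap between the libraries within either age.

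Fkbp4 (ENSMUSG00000030357, chromosome 6) encodes FKBP52, the related cochaperone that favours transport of the receptor into the nucleus. It stood at 196.6 and 225.2 CPM at 79 weeks, against 242.8 and 224.8 CPM at 7 weeks, and the ages overlapped (log2 fold change -0.15, SE 0.07). Per 100 Fkbp4 reads there were 4.11 and 2.96 Fkbp5 reads at 79 weeks, against 3.70 and 5.17 at 7 weeks, which overlap.

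The 4 responsive genes did not move together. Zbtb16 and Tsc22d3 had lower levels at 79 weeks, Ddit4 had a higher level, and Sgk1 overlapped between ages. Zbtb16 (ENSMUSG00000066687), which encodes the zinc finger transcription factor PLZF, had 193 and 280 reads at 79 weeks, against 276 and 615 reads at 7 weeks. Its level was 9.996 and 12.1 CPM at 79 weeks, against 17.2 and 29.7 CPM at 7 weeks. Both aged libraries lay below both young ones, and the young ones differed from each other by 1.73-fold. The means were 11.0 ± 1.49 CPM at 79 weeks and 23.4 ± 8.83 CPM at 7 weeks (SD, n = 2 each), with a log2 fold change of -1.09 (SE 0.24). The log2 fold change came to -0.64 when 7-week replicate 2, the higher of the young libraries, was left out, and to -1.43 when the lower one was left out.

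Tsc22d3 (ENSMUSG00000031431, chromosome X) encodes GILZ, a leucine zipper protein that carries part of the anti-inflammatory action of glucocorticoids. It stood at 82.1 and 86.9 CPM at 79 weeks, against 99.1 and 118.1 CPM at 7 weeks. The ages did not overlap, and the means were 84.5 ± 3.37 CPM at 79 weeks and 108.6 ± 13.5 CPM at 7 weeks (SD, n = 2 each). The log2 fold change was -0.36 (SE 0.09), and -0.23 without 7-week replicate 2. Markers of myelinating oligodendrocytes were lower at 79 weeks too, with 5 of 8 called and summed levels of 3527 and 4985 CPM at 79 weeks against 5915 and 5558 CPM at 7 weeks, and their part in these differences was not tested.

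Sgk1 (ENSMUSG00000019970, chromosome 10), which has the full motif shown above in 1 of its 6 promoter windows, encodes a kinase that regulates ion channels and transporters. It stood at 83.6 and 82.4 CPM at 79 weeks, between the 7-week levels of 71.2 and 87.3 CPM. The log2 fold change of 0.06 (SE 0.09) became -0.08 when 7-week replicate 1 was left out and 0.22 when 7-week replicate 2 was, so its sign depended on that choice. Ddit4 (ENSMUSG00000020108, chromosome 10) encodes REDD1, an inhibitor of the growth-regulating kinase complex mTORC1. It stood at 38.5 and 41.2 CPM at 79 weeks, against 33.5 and 33.0 CPM at 7 weeks, with a log2 fold change of 0.26 (SE 0.08).

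In the fit across all genes, edgeR's quasi-likelihood test with Benjamini-Hochberg adjustment and a threshold of 0.05, 3 of the 9 genes were called, 1 higher and 2 lower, beside 8.84% of all genes tested. The 1 higher was Nr3c2, which the choice of the group had fixed, and the 2 lower were Zbtb16 and Tsc22d3. The ages did not overlap for 6 of the 9 genes, 2 higher and 4 lower at 79 weeks, beside 57.7% of all genes tested, 29.1% higher and 28.7% lower. Since the group was assembled from this contrast, nothing is read from these counts. The call of Zbtb16 ended with robust dispersion, that of Tsc22d3 with library-size scaling, and both ended in limma-voom and when either 7-week library was left out. With 7-week replicate 1 left out the call of Nr3c2 ended too, as did the call of every other gene. A call lost in that fit, here or below, is therefore not particular to its gene.

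**Figure D2:**
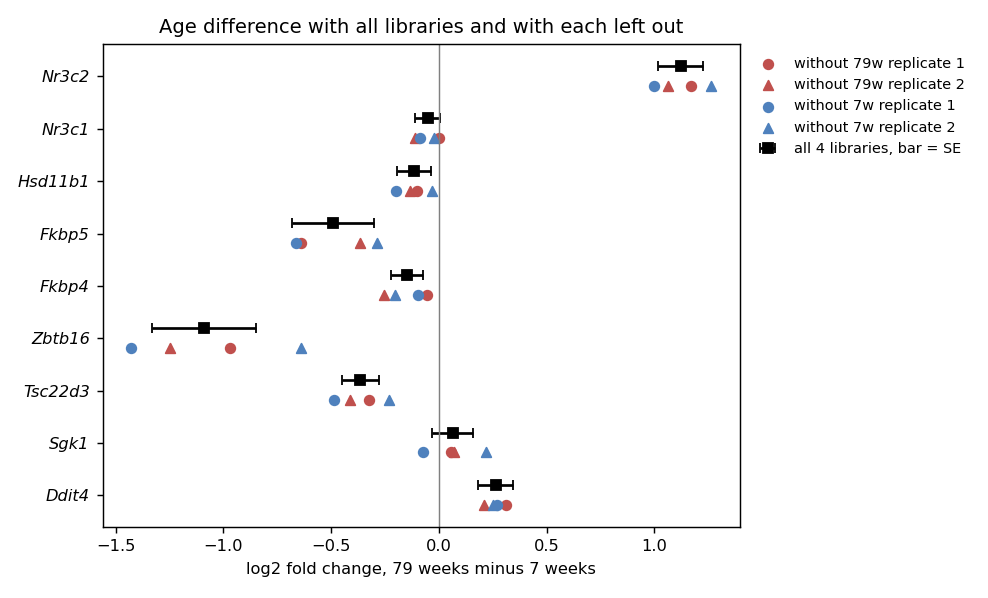
Log2 fold change of each gene, 79 weeks minus 7 weeks (horizontal axis), from the fit with all 4 libraries (square, bar = SE) and from the fits that leave out 1 library (red for a 79-week, blue for a 7-week library; circles replicate 1, triangles replicate 2). Nr3c2 stays between 0.998 and 1.26, Zbtb16 spreads from -1.43 to -0.64, and Sgk1 falls on both sides of 0.

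The genes whose profile over the 4 libraries lay closest to that of Nr3c2 were sought among 14060 other genes averaging 1 CPM or more, by Euclidean distance between log2(CPM + 0.5) values centred on each gene's own mean. The nearest 5 with a symbol were Pld4, Parp4, Hsf4, Ccdc3 and Chd5, at distances of 0.0408 to 0.0627 log2 units. Parp4 was at 47.5 and 50.9 CPM at 79 weeks, against 20.1 and 23.7 CPM at 7 weeks. Pld4, the nearest, was at 5.90 and 6.61 CPM at 79 weeks, against 2.31 and 2.90 CPM at 7 weeks. Chd5, which encodes a chromatin remodeller, was at 87.6 and 94.5 CPM at 79 weeks, against 38.9 and 48.2 CPM at 7 weeks. With 4 libraries such closeness says no more than that the genes had a similar fold difference and a similar small step between replicates.

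Beyond the 9 genes, 95 further genes of the pathway were followed in 9 lists, and 83 of them passed the low-count filter. Of these 83, 0 rose, 6 fell and 77 were not called in edgeR's quasi-likelihood test, beside 4.17% of all genes called higher and 4.68% called lower. Their median log2 fold change was -0.05, beside 0.01 over all genes tested. Neuronal markers were lower at 79 weeks as well, with 5 of 8 called lower and none higher for granule neurons (median log2 fold change -0.31) and likewise 5 of 8 for Purkinje cells (median -0.23). The Purkinje cell markers summed to 8307 and 8547 CPM at 79 weeks against 10251 and 10164 CPM at 7 weeks, and the part of either list in the falls below was not tested.

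The list of other genes known to be induced by glucocorticoids had 0 higher, 3 lower and 20 not called of 23 tested, with a median log2 fold change of 0.04. Cdkn1a, which encodes the cell cycle inhibitor p21, stood at 19.1 and 20.8 CPM at 79 weeks, against 28.5 and 30.5 CPM at 7 weeks. It fell by 0.56 on the log2 scale (SE 0.09, edgeR adjusted p = 0.0158). Klf9, which encodes a Krüppel-like transcription factor, stood at 211.8 and 199.9 CPM at 79 weeks, against 249.7 and 267.5 CPM at 7 weeks, and fell by 0.33 on the log2 scale (SE 0.06, edgeR adjusted p = 0.0173).

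The metallothionein gene Mt2, whose product binds zinc and copper, stood at 94.2 and 98.4 CPM at 79 weeks, against 113.1 and 134.0 CPM at 7 weeks, and fell by 0.36 on the log2 scale (SE 0.08, edgeR adjusted p = 0.0393). Each of these 3 genes had both aged libraries below both young ones, as did 28.7% of all genes tested. The 3 were named because they were called lower, so this adds nothing to the call. With 7-week replicate 1 left out, edgeR called none of the 3 (adjusted p = 0.119 for Cdkn1a, 0.113 for Klf9 and 0.099 for Mt2), nor with 7-week replicate 2 left out (adjusted p = 0.0912, 0.101 and 0.165, in the same order). With library-size scaling Mt2 was not called (edgeR adjusted p = 0.0588).

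Per1 and Dusp1, named after their values were seen, had the opposite sign. Per1, a clock gene, stood at 197.1 and 178.5 CPM at 79 weeks, against 103.9 and 154.3 CPM at 7 weeks (log2 fold change 0.53, SE 0.16, edgeR adjusted p = 0.0767). Dusp1, a phosphatase gene that neuronal activity also induces, stood at 110.1 and 54.0 CPM at 79 weeks, against 29.5 and 43.4 CPM at 7 weeks (log2 fold change 1.16, SE 0.32, edgeR adjusted p = 0.0638). The summed level of 8 immediate early genes was 460.6 and 223.4 CPM at 79 weeks, against 135.5 and 152.5 CPM at 7 weeks, so that it was highest in the same library as Dusp1. Its part in the level of Dusp1 was not tested.

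Among receptor chaperones and cochaperones, 0 of 11 rose, 1 fell and 10 were not called, with a median log2 fold change of -0.15. Hspa8, which encodes the constitutive HSC70 chaperone, stood at 1248 and 1322 CPM at 79 weeks, against 1603 and 1500 CPM at 7 weeks, and fell by 0.27 on the log2 scale (SE 0.06, edgeR adjusted p = 0.0437). The gene has many pseudogene copies, whose effect on its count was not tested. It was not called with library-size scaling (edgeR adjusted p = 0.0703) or without 79-week replicate 1 (0.0688), nor without 7-week replicate 1 (0.282) or 2 (0.12). Receptor coregulators had 0 of 10 called, with a median of -0.11, and the corepressor gene Ncor1, named as the gene of highest mean CPM in the list, stood at 376.3 and 376.4 CPM at 79 weeks against 393.6 and 411.5 CPM at 7 weeks (edgeR adjusted p = 0.308).

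Relatives and targets of Sgk1 had 0 of 13 higher, 2 lower and 11 not called, with a median log2 fold change of -0.03. Nedd4l, a ubiquitin ligase gene whose product SGK1 phosphorylates, stood at 131.6 and 127.2 CPM at 79 weeks, against 170.9 and 155.5 CPM at 7 weeks, and fell by 0.33 on the log2 scale (SE 0.06, edgeR adjusted p = 0.019). It was not called without 7-week replicate 1 (edgeR adjusted p = 0.153) or 2 (0.0582). Atp1b1, which encodes a beta subunit of the sodium pump, stood at 1097 and 1109 CPM at 79 weeks, against 1300 and 1301 CPM at 7 weeks, and fell by 0.24 on the log2 scale (SE 0.06, edgeR adjusted p = 0.0424). It was not called with library-size scaling (edgeR adjusted p = 0.0769) or without 79-week replicate 1 (0.0607), nor without 7-week replicate 1 (0.234) or 2 (0.175).

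In the remaining lists 0 genes were called. The mTOR list with Ddit4 relatives (9 tested) and the relatives of Tsc22d3 and of the FKBP proteins (8 tested) had medians of -0.04 and -0.05. The genes named from them, by their mean CPM over the 4 libraries, were Ywhaz, at 664.8 and 686.1 CPM at 79 weeks against 688.5 and 705.1 CPM at 7 weeks, and Tsc22d1, at 230.5 and 231.7 CPM at 79 weeks against 239.0 and 249.0 CPM at 7 weeks. Of the ligand list, Abcb1a, which encodes the P-glycoprotein that exports steroids at the blood-brain barrier, stood at 34.1 and 36.1 CPM at 79 weeks, against 28.4 and 34.7 CPM at 7 weeks (edgeR adjusted p = 0.426).

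Crhr1, a receptor gene for corticotropin-releasing hormone, stood at 78.1 and 94.0 CPM at 79 weeks, against 116.3 and 104.9 CPM at 7 weeks (log2 fold change -0.36, SE 0.09, edgeR adjusted p = 0.0586). DESeq2 called it lower (adjusted p = 0.0137), and so did edgeR without 79-week replicate 2 (adjusted p = 0.000425). Its log2 fold change was -0.23 when the other aged library was left out (edgeR adjusted p = 0.112), and library-size scaling did not call it either (edgeR adjusted p = 0.082). Over the 12 alternatives its adjusted p ranged from 2.96e-06, in edgeR with no low-count filter, to 0.328, in edgeR with 7-week replicate 1 left out.

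**Figure D3:**
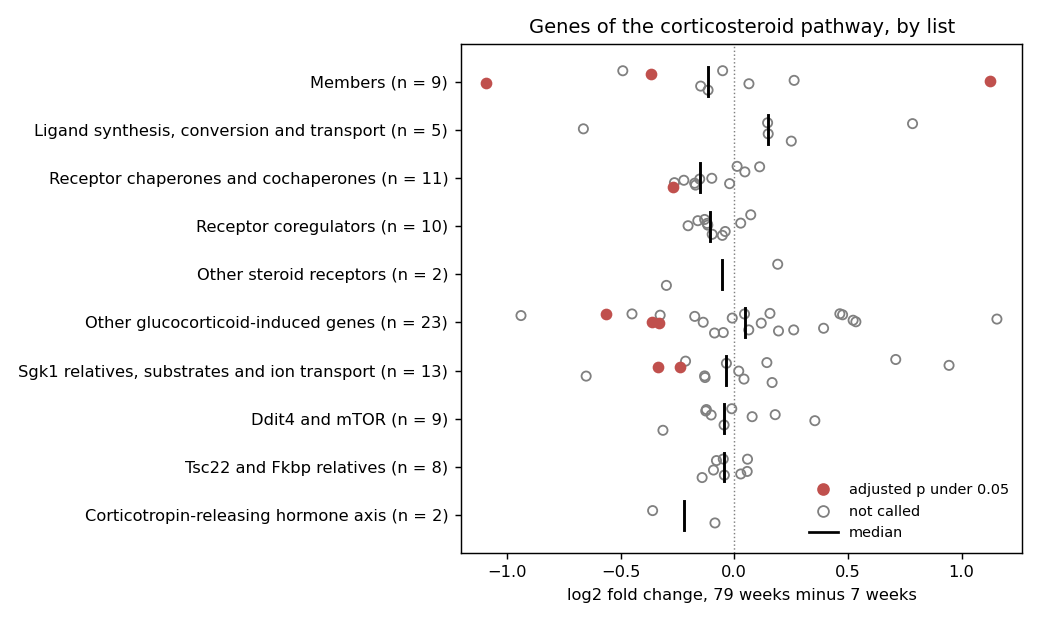
Log2 fold change, 79 weeks minus 7 weeks (horizontal axis), of the 9 genes described here (top row) and of the tested genes of each pathway list, with filled points for an edgeR adjusted p under 0.05 and a bar at each median. Outside the top row the 6 filled points all lie left of 0, and the list medians lie between -0.22 and 0.15.

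The libraries of 1 age also differed from each other in the hormone-induced genes. Zbtb16, Fkbp5, Sgk1 and Tsc22d3 were each higher in 7-week replicate 2 than in 7-week replicate 1, by 1.73-fold for Zbtb16, 1.296-fold for Fkbp5, 1.23-fold for Sgk1 and 1.19-fold for Tsc22d3, while Ddit4 stood at 33.0 and 33.5 CPM in the same order. Of the 23 other induced genes, 21 were higher in 7-week replicate 2, or 91.3%, beside 51.3% of all genes tested, and 9 were higher by more than 1.3-fold, or 39.1%, beside 8.3% of all genes tested. Only Cebpb and Angptl4 were lower, both by more than 1.3-fold, or 8.7%, beside 6.28% of all genes tested. Their median log2 difference was 0.30, beside 0.00 over all genes tested and 0.01 over the 60 tested genes of the other pathway lists. This contrast was looked at after the values had been seen, it compares 1 library with 1 library, and the genes of a library are not replicates, so no test is given.

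Among those 9 genes were Plin4, a lipid droplet protein gene, at 7.82 CPM in 7-week replicate 2 and 2.18 CPM in replicate 1, and Xdh, the xanthine dehydrogenase gene, at 14.0 and 5.05 CPM. Hif3a, a hypoxia-inducible factor gene, was at 29.9 and 17.8 CPM, and Per1 at 154.3 and 103.9 CPM. In the 79-week libraries, replicate 2 and replicate 1, Plin4 was at 5.83 and 5.80 CPM and Xdh at 10.5 and 11.0 CPM, between their 7-week values. Over the 23 genes, 13 were higher in 79-week replicate 2, or 56.5%, beside 50.1% of all genes tested. More than 1.3-fold higher were 2 of them, beside 6.7% of all genes tested, and more than 1.3-fold lower were 4, beside 9.66%.

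Summed marker levels of Bergmann glia and astrocytes were 3185 CPM in 7-week replicate 2 and 2998 CPM in 7-week replicate 1. Those of red blood cells were 44.1 and 29.0 CPM, and those of endothelial cells and pericytes 276.6 and 266.7 CPM. Choroid plexus markers summed to 29.4 and 16.1 CPM. Meninges and fibroblasts, microglia and immediate early genes also had higher sums in replicate 2. Sums for granule neurons, Purkinje cells and myelinating oligodendrocytes were lower in it. The part of these lists in the differences of the induced genes was not tested. The size of the age differences of Zbtb16, Fkbp5 and Tsc22d3 given above varied with the choice of 7-week library, but their sign did not. For Sgk1 the sign varied too. The log2 fold change of Nr3c2 also varied in size with that choice, between 0.998 and 1.26, and kept its sign. Each 7-week library had Nr3c2 below both 79-week libraries, and Zbtb16, Fkbp5 and Tsc22d3 above both.

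**Figure D4:**
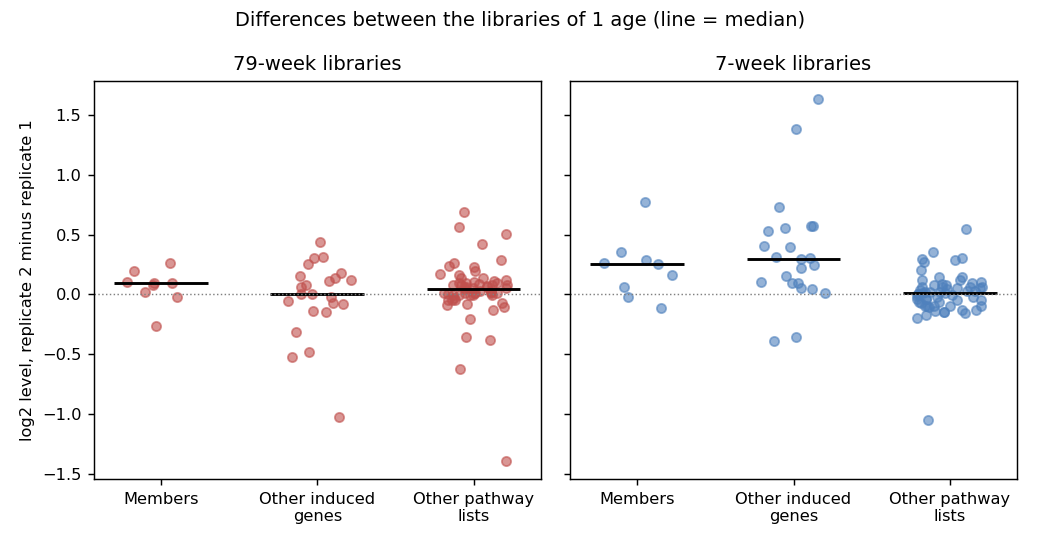
Difference in log2(CPM + 0.5) between replicate 2 and replicate 1 (vertical axis) for the 79-week libraries (left) and the 7-week libraries (right), with a point per gene and a line at the median of the 9 genes, the 23 other induced genes and the 60 genes of the other pathway lists. At 7 weeks the median of the induced genes is 0.30 and that of the other lists 0.01, and at 79 weeks they are 0.01 and 0.05.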

How the data were processed

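Each library's deposited file lists unnormalised read counts for Ensembl genes, from reads trimmed by cutadapt, aligned by STAR to build mm9 and counted by HTSeq, per the submitters' processing notes, without versions. Neither annotation release nor strand setting is given in the sources used here. HTSeq summary lines were removed, and reads without a unique alignment (8.02% to 8.25%) had not been counted. Symbols came from an Ensembl name table, which named 32919 of 37991 identifiers.

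Genes passing filterByExpr (minimum count 10, minimum total 15) were TMM-scaled and compared between ages, 79 minus 7 weeks, by edgeR 4.0.16's quasi-likelihood test in R 4.3.3, with no covariate. The script was tested on simulated data. Exon lengths were not used, so levels are not compared between genes, and CPM ranks, which also reflect transcript length, served only to pick names. The 9 genes, the pathway and marker lists and the tests were chosen with earlier results of these data known. Named pathway genes were the up to 3 called genes of smallest adjusted p in a list, or its gene of highest mean CPM. One gene that this rule picks is not reported here. Alternatives were RLE and library-size scaling, no filter, DESeq2 1.42.0, limma-voom (limma 3.58.1), robust dispersion, a replicate block and each library left out. The crossed block was added after the data were seen.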

Additional observations from a re-analysis of the deposited data

How the results depend on the processing

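Nr3c2 kept its direction in all 12 alternatives run, with log2 fold changes of 0.998 to 1.26, as did Fkbp5, Fkbp4, Tsc22d3, Hsd11b1, Zbtb16 and Ddit4 within their own ranges, while Nr3c1 kept its sign in 10 and Sgk1 in 11 of 12. Over all genes edgeR called 1352, 47.1% of them higher, against 65.1% of 1385 with library-size scaling, which called 1 pathway gene higher and 3 lower and, of the 9 genes, 2 higher and 1 lower. Without the low-count filter 3051 genes and 20 pathway genes were called. With robust dispersion 10 pathway genes and 2 of the 9 genes were called, and limma-voom called 1 of the 9 genes; the cause was not tested. Leaving out each library gave 0 to 2425 called genes, 0 to 4 of the 9 genes and 0 to 16 pathway genes. The count of 0 came without 7-week replicate 1, where 2610 genes had an unadjusted p under 0.05 in edgeR; fits that leave out a library assume that the lone library of its age varies like the others. The replicate numbers are not known to pair the libraries. A replicate block gave 1396 called genes, 3 of the 9 genes and 8 pathway genes. Same-numbered libraries had deviations correlated at -0.11 over genes, and the crossed block gave 2014, 3 and 14. With 2 libraries per age, small differences cannot be told from spread.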

Other observations

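Some genes of the hormone axis were near the limit of detection. Cyp11b1, Cyp21a1 and Serpina6, genes of adrenal steroid synthesis and of the corticosteroid-binding globulin of blood, had 0 reads in each of the 4 libraries. Hsd11b2, whose product inactivates glucocorticoid and so shields the mineralocorticoid receptor in aldosterone target tissues such as kidney, had 2 and 0 reads at 79 weeks and 0 and 1 reads at 7 weeks. Crhr2, a second receptor gene for the corticotropin-releasing hormone family, had 99 reads in 79-week replicate 1, where choroid plexus markers were high, against 3 reads in 79-week replicate 2 and 0 reads in both 7-week libraries.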
